A study of Mus musculus with 8 samples.

Results

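The acute phase response genes of mouse liver followed here were Apcs, Lcn2, Saa1, Saa2, Saa3, Hamp, Hp, Orm1, Itih3 and Itih4. They were taken from a list of 10 genes, and every probe set whose array annotation names 1 of them alone was used. This gave 11 probe sets for 9 genes among the 12422 probe sets tested. Lcn2 and Saa2 had 2 probe sets each and the other 7 genes 1 each. Saa1 was not analysed here, because no probe set names it alone, and 1 further probe set that names both Orm1 and Orm2 was left out.

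Total RNA of liver was measured on 8 oligonucleotide arrays, 2 in each of 4 groups. All mice were siblings from a mixed FvB/n and Swiss Webster background and carried the Ttr::Fv2E-Perk transgene of 1 line (#58), described as expressed at a low level. In it the promoter of the liver gene Ttr drives a PERK kinase joined to domains that a drug can pair. The 4 groups were untreated Atf4+/+, AP20187-treated Atf4+/+, untreated Atf4-/- and AP20187-treated Atf4-/- mice, and AP20187 is that drug, which pairs the domains and so switches the kinase on. The dose, the time after injection and the age and sex of the mice are not given in the sources used here. The series title calls the untreated mice mock-injected. Each deposited value is a linear ratio. The median of a probe set over the 8 arrays lay between 0.99 and 1.005 for 85.8% of the table and lower for the rest, so the values show how a probe set varied between arrays and not how much RNA there was, while no source used here says what they were divided by. For the same reason the presence of hepatocyte or other marker transcripts cannot be read from these values, and the labelled tissue could not be checked against its markers.

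In the acute phase response the liver changes its output of plasma proteins within hours of injury or infection. Interleukin-6, acting through STAT3, and interleukin-1 and tumour necrosis factor, acting through NF-kappaB and C/EBP factors, are its known signals to hepatocytes. PERK is a kinase of the unfolded protein response; by phosphorylating the initiation factor eIF2 it lowers general translation and raises that of the transcription factor ATF4. The liver factor CREBH, encoded by Creb3l3, is known to activate Apcs and Hamp in mice under stress of the endoplasmic reticulum, and Creb3l3 was not analysed here. The comparisons asked how the acute phase genes stood after activation of the kinase in livers with and without Atf4.

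The genes lie at several places of the genome (GRCm38.p6). The serum amyloid A genes form a cluster on chromosome 7, with Saa3 at 46711998 to 46719615, Saa1 at 46740497 to 46743181 and Saa2 at 46751833 to 46754313. Itih4 (30886476 to 30901986) and Itih3 (30908572 to 30923787) are neighbours on chromosome 14. Apcs lies on chromosome 1 (172893961 to 172895054), Lcn2 on chromosome 2 (32384637 to 32387739), Orm1 on chromosome 4 (63344556 to 63348163), Hamp on chromosome 7 (30942368 to 30944029) and Hp on chromosome 8 (109575128 to 109579172). The 250 bases upstream of the RefSeq start are shown for the genes whose values moved most between arrays, and for Saa1 because it is a near copy of Saa2. They are credited to RefSeq, build GRCm38.p6, and run 5′ to 3′ on the strand of the gene. For Saa1 and Saa3 that start lies inside the gene span given above, since the spans cover all transcripts. Capitals mark matches to a searched motif.
Apcs, chr1:172895055-172895304, minus strand: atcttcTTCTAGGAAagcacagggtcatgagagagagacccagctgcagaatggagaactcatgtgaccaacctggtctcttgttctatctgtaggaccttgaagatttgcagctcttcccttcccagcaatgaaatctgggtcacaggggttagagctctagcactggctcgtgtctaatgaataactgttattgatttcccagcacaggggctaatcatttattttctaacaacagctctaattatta
Saa2, chr7:46751583-46751832, plus strand: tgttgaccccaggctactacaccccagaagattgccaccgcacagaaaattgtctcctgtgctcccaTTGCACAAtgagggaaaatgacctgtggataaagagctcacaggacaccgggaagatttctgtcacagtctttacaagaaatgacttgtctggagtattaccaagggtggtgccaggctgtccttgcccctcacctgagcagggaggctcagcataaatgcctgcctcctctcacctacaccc
Saa1, chr7:46742981-46743230, minus strand: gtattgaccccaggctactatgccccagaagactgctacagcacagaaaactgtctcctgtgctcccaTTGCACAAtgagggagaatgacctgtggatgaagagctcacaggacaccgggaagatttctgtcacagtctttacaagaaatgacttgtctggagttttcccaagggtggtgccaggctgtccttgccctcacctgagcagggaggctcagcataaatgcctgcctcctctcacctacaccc
Lcn2, chr2:32387740-32387989, minus strand: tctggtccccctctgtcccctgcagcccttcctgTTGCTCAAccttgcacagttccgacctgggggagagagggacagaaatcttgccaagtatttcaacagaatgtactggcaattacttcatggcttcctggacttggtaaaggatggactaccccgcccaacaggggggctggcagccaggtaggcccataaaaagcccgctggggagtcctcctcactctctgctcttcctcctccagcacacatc
Saa3, chr7:46715677-46715926, minus strand: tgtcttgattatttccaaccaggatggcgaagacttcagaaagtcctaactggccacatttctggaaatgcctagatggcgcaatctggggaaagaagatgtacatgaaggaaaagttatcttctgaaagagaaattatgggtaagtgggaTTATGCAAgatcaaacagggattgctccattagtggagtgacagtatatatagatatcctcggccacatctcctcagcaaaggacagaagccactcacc
Hamp, chr7:30944030-30944279, minus strand: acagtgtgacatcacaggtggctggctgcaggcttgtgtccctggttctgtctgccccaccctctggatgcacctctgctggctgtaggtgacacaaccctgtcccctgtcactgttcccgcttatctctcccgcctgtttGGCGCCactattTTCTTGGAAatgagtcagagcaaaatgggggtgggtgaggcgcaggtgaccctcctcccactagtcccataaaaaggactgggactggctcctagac

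The Saa1 and Saa2 windows were identical at 238 of 251 aligned positions (94.8%), and those of Saa2 and Saa3 at 143 of 276 (51.8%). With genes this alike, signal on a probe set that names Saa2 may in part come from Saa1 RNA, which was not tested. Windows were found for 8 of the 10 genes, those of Itih3 and Itih4 among them. Motifs were searched on both strands, and the share of 27025 gene windows of the same length that held each is given beside it. The STAT motif TTCNNNGAA (7.18% of windows) was present in Apcs 244 to 236 bases, in Hamp 97 to 89 bases and in Itih4 51 to 43 bases upstream of the start. The C/EBP motif TTGCNNAA (9.55%) was present in Lcn2 216 to 209, in Saa1 182 to 175, in Saa2 183 to 176 and in Saa3, on the opposite strand, 99 to 92 bases upstream. Hamp also held the BMP element GGCGCC (9.54%) at 109 to 104 bases, which did not overlap its STAT match. In none of the 8 windows were the letters of the C/EBP-ATF element TGATGNAA (3.53%), of the cyclic AMP element TGACGTCA (1.62%) or of the NF-kappaB consensus (7.01%) found. These matches describe letters in a window and no binding was measured.

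The gene Atf4 tests the genotype labels and is given first. Its probe set had ratios of 4.17 and 5.75 in treated Atf4+/+ livers and 0.25 and 0.33 in treated Atf4-/- livers. In the untreated livers it stood at 2.36 and 0.30 in the arrays labelled Atf4+/+ and at 0.29 and 1.67 in those labelled Atf4-/-. Replicate 2 of both untreated groups thus stood against its label. The labels of untreated Atf4-/- replicate 1 also give different genotypes in 2 fields, and the source name was followed. The Atf4 ratio of that array, 0.29, lay by those of the treated Atf4-/- livers. For untreated Atf4+/+ replicate 1 the genotype was read from its description. Genotype comparisons that use untreated arrays are therefore given as labelled, with values for other treatment of the doubted arrays beside them. The mean of the 4 treated minus the mean of the 4 untreated arrays needs no genotype, but its SE and p use the labelled groups. In the fit with untreated Atf4-/- replicate 1 placed by its description, in which the groups are unequal, the median over the 9 genes was 0.49 in place of 0.37, and Hamp and Itih3 stood at 0.22 and 0.28 in place of 0.36 and 0.07. Treated Atf4+/+ replicate 2 stood apart in the Actb reading of RNA integrity but not in that of Gapdh. For Actb the 5′ probe set over the 3′ one was -0.64 on the log2 scale, against -0.19 to 0.14 in the other arrays. That of Gapdh, at -0.06, was close to the next lowest at -0.05. Both were taken from the deposited ratios, so they compare arrays with each other and give no 5′ over 3′ signal of an array.

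**Figure D1:**
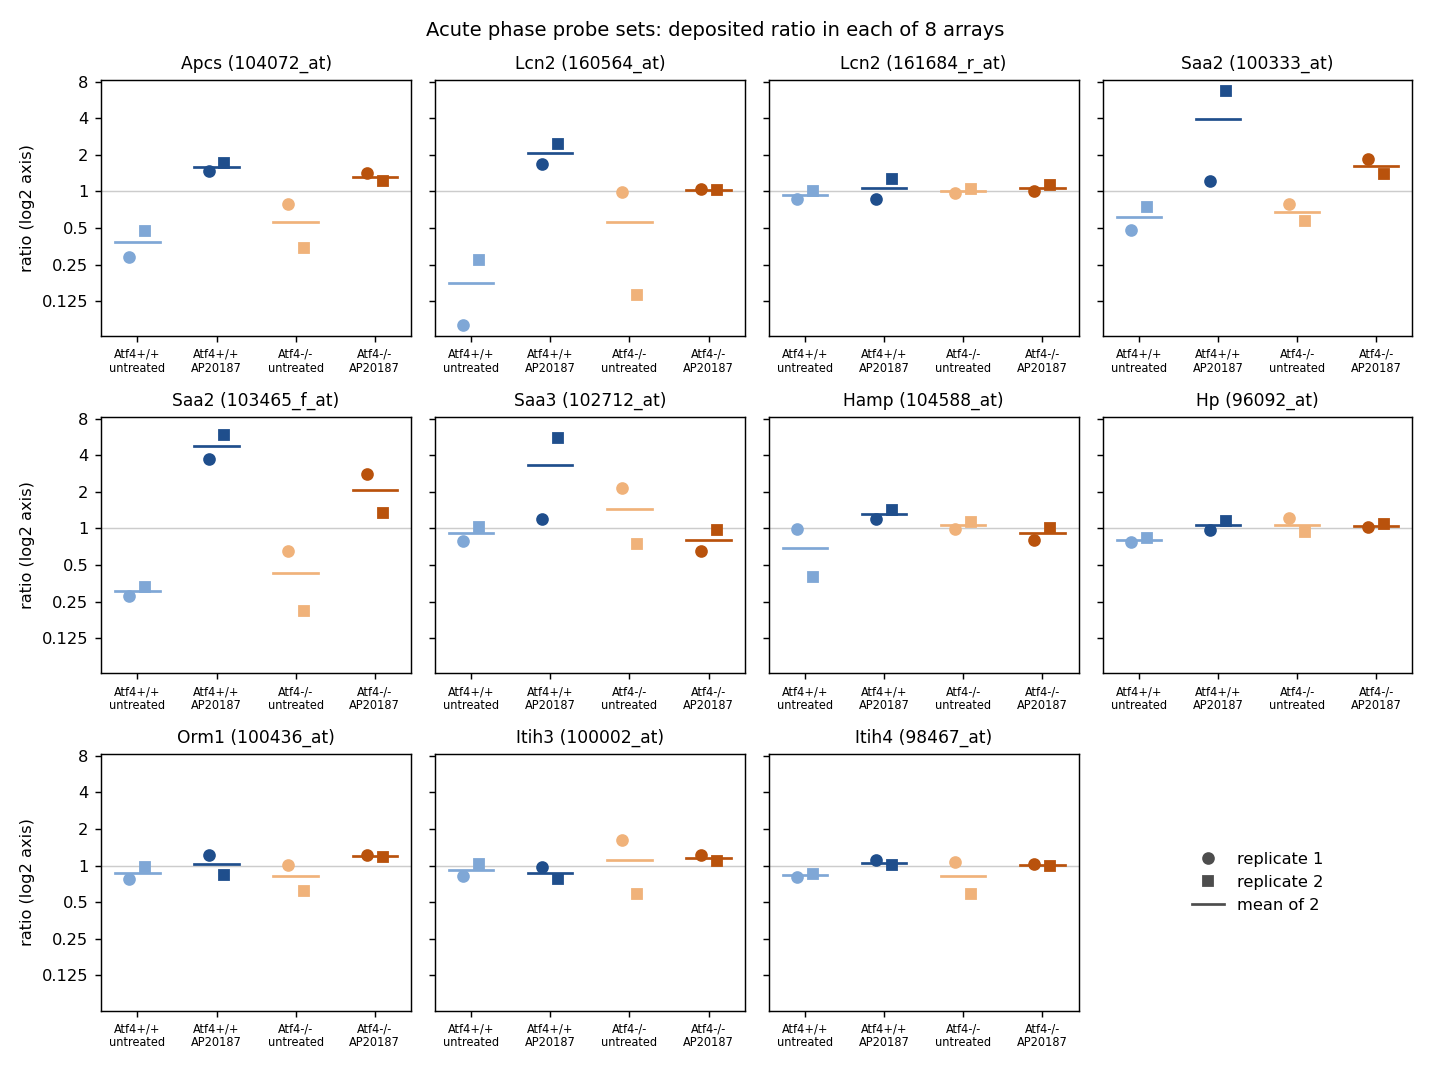
Deposited ratio of each of the 11 acute phase probe sets (y axis, log2 scale, no unit) in the 4 groups (x axis); circles are replicate 1, squares replicate 2 and bars the mean of 2 arrays. In Apcs, both Saa2 probe sets and 1 Lcn2 probe set all 4 treated arrays lie above all 4 untreated ones. Hp, Orm1, Itih3, Itih4 and the other Lcn2 probe set overlap between treated and untreated arrays and lie within 0.58 to 1.63.

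Across both genotypes all 4 treated arrays had higher ratios than all 4 untreated ones for 3 acute phase genes: Apcs, Saa2 by both probe sets, and Lcn2 by 1 of its 2. The other 6 measured genes overlapped between treated and untreated arrays. All 4 treated arrays stood above all 4 untreated ones in 4.19% of all probe sets, and in 3 of 9 acute phase genes (4 of 11 probe sets); below them stood 3.78% of all probe sets and 0 acute phase genes. The values below are differences of log2(ratio + 0.1) between group means with the SE of limma, an adjusted p is by Benjamini and Hochberg over 12422 probe sets, and the threshold was 0.05. None of the 9 genes passed it. By the same limma fit 5 probe sets (0.0403%) passed it over both genotypes, and 3 of the 9 genes had an unadjusted p under 0.05 with higher values, against 6.16% of all probe sets.

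Apcs encodes serum amyloid P, a pentraxin that is the main member of its family to respond in mouse plasma. Its ratios were 0.29 and 0.47 in untreated Atf4+/+, 1.46 and 1.71 in treated Atf4+/+, 0.78 and 0.34 in untreated Atf4-/- and 1.41 and 1.22 in treated Atf4-/- livers. The treated arrays were close together and the groups did not overlap. The mean ratio was 1.45 ± 0.202 in the 4 treated and 0.47 ± 0.220 in the 4 untreated arrays (SD, n = 4), a 3.09-fold difference. On the log2 scale the difference was 1.51 ± 0.27 (SE; limma adjusted p = 0.185, 95% interval 0.86 to 2.15). It was 74th of 12422 probe sets in the order of p.

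Saa2 encodes an apolipoprotein of high density lipoprotein that is among the strongest acute phase proteins of the mouse. Of its probe sets, the one with the suffix f, called the family probe set here, had ratios of 0.28 and 0.33 in untreated and 3.72 and 5.86 in treated Atf4+/+ livers. In Atf4-/- livers the same probe set stood at 0.65 and 0.21 untreated and 2.80 and 1.35 treated. Every treated array lay above every untreated one, and the treated Atf4+/+ pair above the treated Atf4-/- pair. Its difference over both genotypes was 2.82 ± 0.37 (SE; limma adjusted p = 0.111, 95% interval 1.93 to 3.72), 22nd in the order of p. That suffix marks probes shared by a sequence family, so that its reading cannot be given to Saa2 alone.

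The second, plain Saa2 probe set stood at 0.48 and 0.75 untreated and 1.22 and 6.64 treated in Atf4+/+ livers. In Atf4-/- livers it stood at 0.78 and 0.57 untreated and 1.84 and 1.40 treated. The groups again did not overlap, but 1 array, treated Atf4+/+ replicate 2, lay far above the other 3 treated ones. Its difference was 1.62 ± 0.51 (SE; limma adjusted p = 0.362), and 1.03 without that array, which also had the lowest Actb integrity ratio; the part of RNA integrity in this was not tested. By the rule for 1 probe set per gene, the plain probe set stands for Saa2 in the counts.

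Lcn2 encodes lipocalin 2, which binds bacterial siderophores and so withholds iron. With its plain probe set the untreated ratios were 0.08 and 0.27 in Atf4+/+ and 0.98 and 0.14 in Atf4-/- livers. The treated ratios were 1.68 and 2.46 in Atf4+/+ and 1.05 and 1.02 in Atf4-/- livers. Untreated Atf4-/- replicate 1 was almost as high as the treated Atf4-/- pair, and the other 3 untreated arrays were low. The mean ratio was 1.55 ± 0.677 treated and 0.367 ± 0.416 untreated (SD, n = 4), a difference on the log2 scale of 2.10 ± 0.51 (SE; limma adjusted p = 0.267, 95% interval 0.88 to 3.32). The other Lcn2 probe set, with the suffix r, ranged from 0.86 to 1.26 over the 8 arrays and differed by 0.11 ± 0.17 (SE). The 2 probe sets of Lcn2 thus disagreed; that suffix marks a probe set built with relaxed rules, and whether it reads the transcript is unknown from ratios.

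Neutrophils also carry Lcn2, so the neutrophil markers are given beside it. Over 11 marker genes measured of 12, the summed ratio was 11.6 to 14.9 in untreated and 9.02 to 13.4 in treated arrays, with no marker listed at 0. The lowest sums, 9.02 and 10.3, belonged to the treated Atf4+/+ livers, in which Lcn2 was highest. Of the markers, Ltf stood at 2.6 in untreated Atf4+/+ replicate 1 and at 4.04 in untreated Atf4-/- replicate 2. In untreated Atf4-/- replicate 1 S100a8 and S100a9 stood at 2.6 and 2.39, while the sum, 12.9, lay inside the untreated range. The part of neutrophils in Lcn2 was not tested. The 10 macrophage markers summed to 9.71 to 11.1 in the treated arrays and to 14.2 in untreated Atf4-/- replicate 1, against 7.80 to 9.92 in the other 3 untreated arrays, with no marker listed at 0. In that array Lcn2 was also the highest of the untreated ones, and the part of these cells in it was not tested. In RNA of whole liver fewer cells of a type and less RNA per cell cannot be told apart.

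Saa3 encodes a further serum amyloid A, made in mice by macrophages and adipocytes as well as by liver. Its ratios were 0.79 and 1.03 untreated and 1.20 and 5.50 treated in Atf4+/+, and 2.15 and 0.75 untreated and 0.65 and 0.97 treated in Atf4-/- livers. The groups overlapped, with 1 high array among the treated Atf4+/+ and 1 among the untreated Atf4-/- livers. The difference over both genotypes was 0.40 ± 0.53 (SE; limma adjusted p = 0.797), and it was -0.13 without treated Atf4+/+ replicate 2. The 4 measured adipocyte markers of 6 summed to 2.37 to 3.94 untreated and 2.84 to 6.40 treated, with no marker listed at 0. The sum of 6.40 belonged to treated Atf4+/+ replicate 2, in which Saa3 stood at 5.50, and Cidec made up 3.84 of it. In that array Adipoq, Lep and Fabp4 stood at 1.08, 0.97 and 0.51. Untreated Atf4-/- replicate 1, in which Saa3 stood at 2.15, also had the highest sum of macrophage markers (14.2). The part of either cell type in Saa3 was not tested.

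Hamp encodes hepcidin, the hormone that lowers iron export by degrading ferroportin. It stood at 0.99 and 0.40 in untreated and 1.20 and 1.42 in treated Atf4+/+ livers. In Atf4-/- livers it stood at 0.99 and 1.14 untreated and 0.81 and 1.01 treated. The Atf4+/+ groups did not overlap, though 1 untreated array held most of their distance, and the Atf4-/- groups overlapped. Over both genotypes the difference was 0.36 ± 0.27 (SE; limma adjusted p = 0.644).

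The remaining genes encode other plasma proteins. Hp, for haptoglobin, which binds free haemoglobin, had ratios of 0.78 to 1.22 untreated and 0.98 to 1.16 treated. Orm1, for the drug-binding glycoprotein orosomucoid, had 0.62 to 1.02 untreated and 0.84 to 1.23 treated. Itih3 and Itih4, whose products belong to the family that binds hyaluronan or resembles its heavy chains, had 0.58 to 1.63 and 0.58 to 1.07 untreated and 0.78 to 1.23 and 1 to 1.11 treated. Treated and untreated arrays overlapped in all 4 genes, and their differences over both genotypes were 0.17 ± 0.16, 0.37 ± 0.22, 0.07 ± 0.31 and 0.32 ± 0.21 (SE, in the order Hp, Orm1, Itih3, Itih4). The median difference of the 9 genes was 0.37, beside -0.04 over all probe sets, and all 9 values were above 0, as were 45.0% of all probe sets. The genes were listed with earlier results of these data known, so that this count and median describe the list and support no wider statement.

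**Figure D2:**
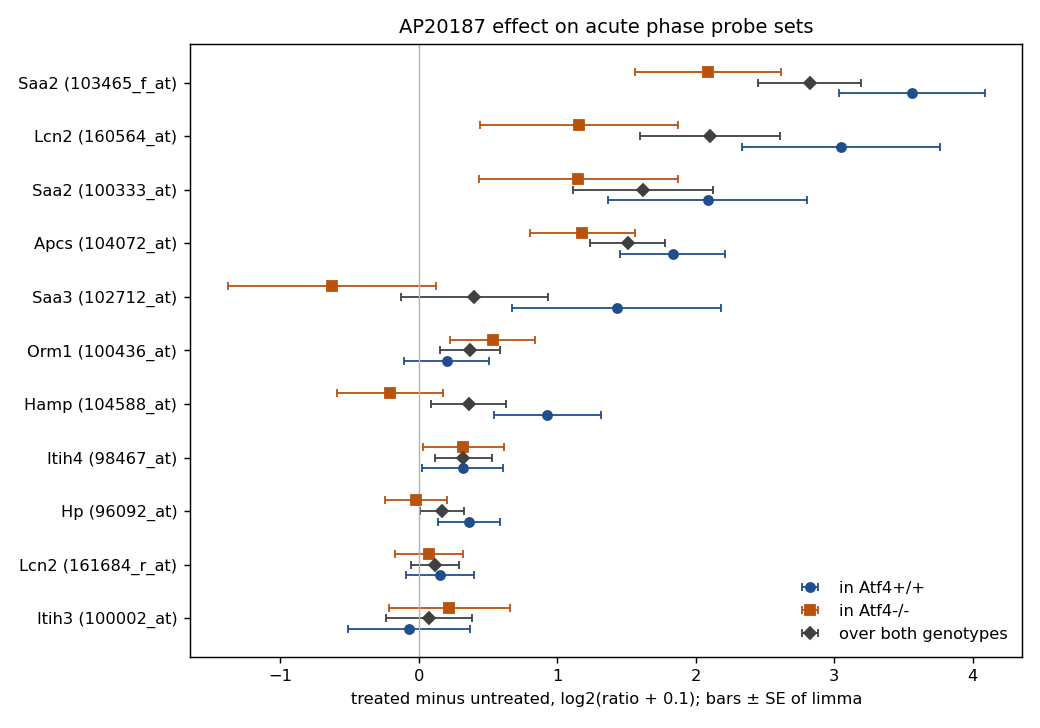
Difference between treated and untreated arrays on the log2(ratio + 0.1) scale (x axis) for each probe set (y axis), in Atf4+/+ (circles), in Atf4-/- (squares) and over both genotypes (diamonds), with the SE of limma as bars. The family probe set of Saa2 lies at 3.56 and 2.09 and the plain one of Lcn2 at 3.05 and 1.16, and Saa3 and Hamp have opposite signs in the genotypes.

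In Atf4+/+ livers alone, 8 of the 9 genes had higher values with AP20187, and 7 did not overlap between the treated and the untreated pair. By comparison 45.1% of all probe sets had values above 0 and 16.7% had both treated Atf4+/+ arrays above both untreated ones. The limma differences were 3.05 ± 0.71 for the plain probe set of Lcn2, 3.56 ± 0.53 and 2.09 ± 0.72 for the family and the plain probe set of Saa2, 1.83 ± 0.38 for Apcs, 1.43 ± 0.75 for Saa3 and 0.93 ± 0.38 for Hamp (SE, 2 against 2 arrays). Their adjusted p-values were 0.338, 0.156, 0.495, 0.266, 0.632 and 0.548 by limma. The 4 genes Lcn2, Saa2, Apcs and Hamp had an unadjusted p under 0.05, against 4.78% of all probe sets with higher values, and 0 of the 9 passed the adjusted test, which 1 of 12422 probe sets (0.00805%) did. Saa3 dropped to 0.37 and Saa2 (plain) to 0.91 without treated Atf4+/+ replicate 2, and Hamp to 0.37 without untreated Atf4+/+ replicate 2. The other Lcn2 probe set stood at 0.15 ± 0.25, and the mean of both at 1.60. Hp stood at 0.36 ± 0.22, Itih4 at 0.32 ± 0.29, Orm1 at 0.20 ± 0.31 and Itih3 at -0.07 ± 0.44 (SE).

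In Atf4-/- livers Apcs, Saa2 and Lcn2 again had higher values with AP20187, while Saa3 and Hamp did not. Apcs differed by 1.18 ± 0.38 (SE, limma adjusted p = 0.604). It was the 1 gene of the 9 with an unadjusted p under 0.05, against 4.27% of all probe sets with higher values. That count takes the plain probe set for Saa2, while the family probe set of Saa2 had an unadjusted limma p of 0.0065. The Saa2 probe sets stood at 2.09 ± 0.53 (family, limma adjusted p = 0.477) and 1.15 ± 0.72 (plain, limma adjusted p = 0.746), and Lcn2 at 1.16 ± 0.71 (limma adjusted p = 0.742). Saa3 was at -0.63 ± 0.75 and Hamp at -0.21 ± 0.38, both lower with AP20187 in value. Orm1 stood at 0.53 ± 0.31, Itih4 at 0.32 ± 0.29, Itih3 at 0.22 ± 0.44 and Hp at -0.02 ± 0.22 (SE). Both treated arrays lay above both untreated ones in 4 of the 9 genes (Apcs, Lcn2, Saa2 and Orm1), against 20.1% of all probe sets, and 0 of 12422 probe sets (0%) passed the adjusted limma test. Of the 9 values 6 were above 0, against 48.1% of all probe sets.

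The size of the Atf4-/- values rested on which untreated Atf4-/- array was kept. Untreated Atf4-/- replicate 1 was the highest of the 4 untreated arrays in 9 of the 11 probe sets, against 25% of all probe sets. Without it the Atf4-/- difference of Lcn2 was 2.24, that of Apcs 1.68, that of Saa2 (family) 2.73 and that of Saa3 0.08. Without untreated Atf4-/- replicate 2 they were 0.07, 0.68, 1.45 and -1.33. The dashes in the plot of left-out arrays show this spread.

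**Figure D3:**
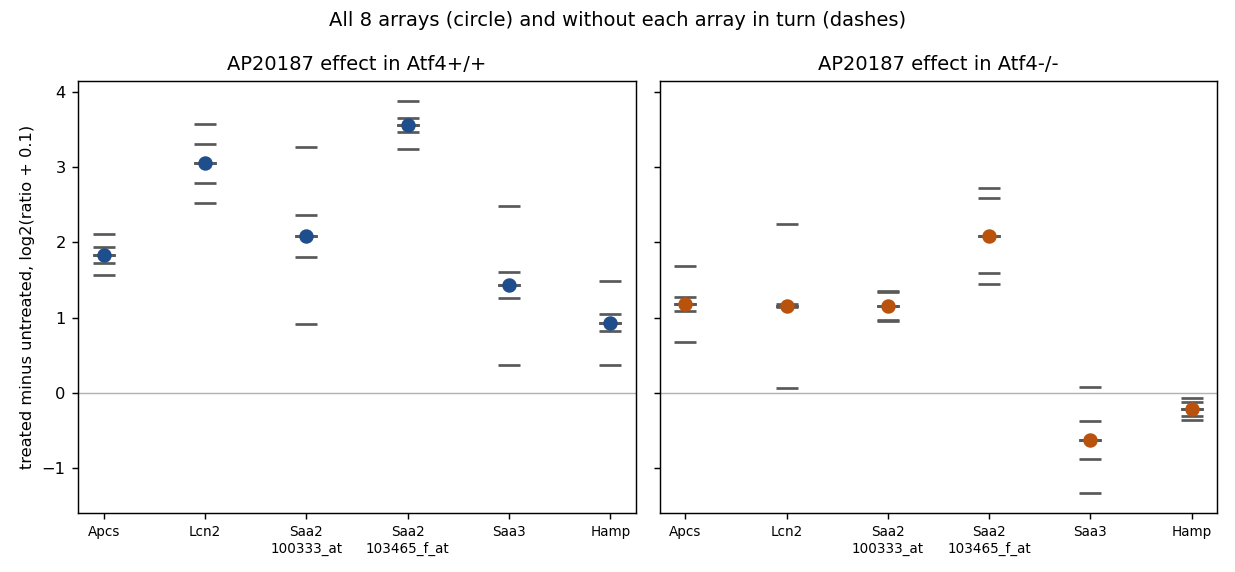
AP20187 effect (y axis, log2(ratio + 0.1) scale) for the 6 probe sets of Apcs, Lcn2, Saa2, Saa3 and Hamp (x axis) in Atf4+/+ (left) and Atf4-/- livers (right), with all 8 arrays (circles) and without each of the 8 arrays in turn (dashes). Lcn2 in Atf4-/- spans 0.07 to 2.24, while Apcs in Atf4+/+ spans 1.56 to 2.11.

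The difference between the genotypes' responses was tested itself, as effect in Atf4-/- minus effect in Atf4+/+. It was -1.89 ± 1.01 for Lcn2, with a 95% interval of -4.33 to 0.55. For the Saa2 probe sets it was -1.47 ± 0.74 (family, interval -3.27 to 0.32) and -0.94 ± 1.02 (plain, interval -3.39 to 1.52). For Saa3 it was -2.05 ± 1.07 (interval -4.63 to 0.52), for Hamp -1.14 ± 0.54 (interval -2.45 to 0.17) and for Apcs -0.65 ± 0.54 (interval -1.95 to 0.64; SE in each case). All these intervals included 0, and the limma adjusted p-values of the 9 genes lay between 0.931 and 0.999. Of the 9 genes 0 had an unadjusted p under 0.05, against 5.46% of all probe sets in either direction, and 0 of 12422 probe sets (0%) passed the adjusted test. Of the 9 genes 6 had a smaller effect in Atf4-/- livers, with a median of -0.65 against 0.04 over all probe sets. Values below 0 made up 46.6% of all probe sets. The size of these differences rested on the doubted untreated arrays. With untreated Atf4-/- replicate 1 placed by its description, Lcn2 stood at -0.12, Apcs at 0.15, Saa3 at -0.96, Hamp at -1.04 and Saa2 at -0.54 (family) and -0.63 (plain). When the 2 untreated arrays with contrary Atf4 readings were left out, the same values were -3.50, -1.43, -2.93, -0.48, -2.20 and -1.41. Without treated Atf4+/+ replicate 2, Saa3 was at -1.0 and the plain Saa2 probe set at 0.24.

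Among treated livers alone no untreated array enters and the Atf4 readings matched the labels. There the Atf4-/- mean on the log2 scale was lower in 7 of the 9 genes, against 45.1% of all probe sets. These 7 included Hp at -0.02 ± 0.22 and Itih4 at -0.06 ± 0.29 (SE). Both treated Atf4+/+ arrays stood above both treated Atf4-/- arrays in 4 genes (Apcs, Lcn2, Saa3 and Hamp) and in the family probe set of Saa2, against 15.3% of all probe sets. The differences were -1.22 ± 0.53 for the family probe set of Saa2 (SE; limma adjusted p = 0.951, interval -2.49 to 0.05), -1.59 ± 0.75 for Saa3 and -0.91 ± 0.71 for Lcn2. They were smaller for Hamp (-0.48 ± 0.38) and Apcs (-0.25 ± 0.38, interval -1.17 to 0.66). The plain probe set of Saa2 stood at -0.81 ± 0.72. Without treated Atf4+/+ replicate 2 it stood at 0.37, Saa3 at -0.54, Lcn2 at -0.65, the family probe set of Saa2 at -0.90 and Apcs at -0.14. The family probe set stood at -0.72 without treated Atf4-/- replicate 2. Treated Atf4+/+ replicate 2 was the highest of the 4 treated ones in 8 of the 11 probe sets, against 28.4% of all probe sets. Of the 9 genes 0 had an unadjusted p under 0.05 by limma (5.31% of all probe sets had one), and 0 of 12422 probe sets (0%) passed the adjusted test.

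In untreated livers, as labelled, the median difference of Atf4-/- from Atf4+/+ over the 9 genes was 0.36, against -0.01 over all probe sets, and 7 of 9 values were above 0, against 49.3% of all probe sets. None of the 9 had an unadjusted p under 0.05 by limma (5.32% of all probe sets had one), and 0 of 12422 (0%) passed the adjusted test. Without untreated Atf4-/- replicate 1 the median was -0.10, with that array placed by its description -0.50, and without both untreated arrays of contrary Atf4 reading 0.60. Untreated Atf4-/- replicate 1 was also the highest of the untreated ones in the sum of macrophage markers, as given above, and their part in the median was not tested.

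Other genes of the response were read from lists written for this work. Of 18 measured genes in a list of 28 other positive acute phase genes, 14 had higher values with AP20187 over both genotypes, 0 passed the adjusted limma test and 5 had an unadjusted p under 0.05, all higher. Over all probe sets 45.0% had higher values, 6.16% had higher values with an unadjusted p under 0.05, 5.15% lower ones, and the median was -0.04. The median of the 18 genes was 0.28. Lrg1, a leucine-rich plasma glycoprotein gene, stood at 0.45 and 0.81 untreated and 1.12 and 1.30 treated in Atf4+/+, and at 0.89 and 0.38 untreated and 1.36 and 1.41 treated in Atf4-/- livers. All its treated arrays were above its untreated ones, and the difference was 1.0 ± 0.29 (SE; limma adjusted p = 0.320). The fibrinogen chain genes Fgb and Fgg differed by 0.59 ± 0.20 and 0.42 ± 0.16 (SE; limma adjusted p = 0.382 and 0.424).

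Of 11 measured negative acute phase genes in a list of 15, which the liver makes less of in inflammation, 9 had lower values over both genotypes, against 55% of all probe sets. With an unadjusted p under 0.05 there were 2, both lower (5.15% of all probe sets), and 0 passed the adjusted limma test. Apoa2, for an apolipoprotein of high density lipoprotein, differed by -1.02 ± 0.31 and Ttr, for transthyretin, by -0.57 ± 0.20 (SE; limma adjusted p = 0.354 and 0.385), and Serpina6, for corticosteroid-binding globulin, by -0.34 ± 0.16. Ttr had ratios of 1.02 to 1.43 untreated and 0.47 to 0.98 with AP20187, with no overlap. The promoter of this gene also drives the transgene.

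Genes of the cytokine pathways differed in the same comparison as follows. In a list of interleukin-1, tumour necrosis factor and NF-kappaB signalling, 19 of 21 measured genes had higher values over both genotypes and 8 had an unadjusted p under 0.05, all higher, against 45.0% and 6.16% of all probe sets, while 0 passed the adjusted limma test. The median was 0.47, against -0.04. Ccl2, a monocyte chemokine gene, differed by 2.23 ± 0.47, the adhesion gene Icam1 by 1.39 ± 0.30 and the adaptor gene Myd88 by 0.68 ± 0.16 (SE; limma adjusted p = 0.223, 0.231 and 0.261). Icam1 stood at 0.48 to 0.86 untreated and 1.14 to 3.38 with AP20187, without overlap, while in Ccl2 treated Atf4-/- replicate 1 (0.91) lay below untreated Atf4+/+ replicate 1 (1.09). In the interleukin-6 and STAT3 list 11 of 18 genes had higher values and 3 of them an unadjusted p under 0.05, with 1 lower, against 45.0%, 6.16% and 5.15% of all probe sets, while 0 passed the adjusted limma test. The median was 0.08, against -0.04. Cebpb and Cebpd, both for C/EBP factors, stood at 0.87 ± 0.28 and 0.59 ± 0.22, and Pias3, for an inhibitor of STAT3, at -0.50 ± 0.16 (SE; limma adjusted p = 0.374, 0.402 and 0.362).

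Among 13 measured genes of hepcidin control and iron, 6 had higher values and 1 an unadjusted p under 0.05, close to the 45.0% and 6.16% of all probe sets, and 0 passed the adjusted limma test. That gene was Smad4, the shared partner of BMP-activated SMAD proteins (0.69 ± 0.18, SE; limma adjusted p = 0.293). Of 9 measured liver regulators of acute phase genes, Xbp1, a transcription factor gene of the unfolded protein response, stood at 0.98 ± 0.17 over both genotypes (SE; limma adjusted p = 0.182), with ratios of 0.54 to 0.79 untreated and 1.22 to 1.66 treated. Gata4 of the same list had lower ratios with AP20187, 1.04 to 1.55 untreated and 0.85 to 0.96 treated, without overlap. Of the 9 genes 5 had higher values, against 45.0% of all probe sets. With an unadjusted limma p under 0.05, 2 were higher and 2 lower, against 6.16% and 5.15% of all probe sets, and 0 passed the adjusted test. For scale, all 9 genes of a list of known stress targets had higher values over both genotypes, with a median of 2.90. Of these 1, Atf3, for a stress-induced transcription factor, passed the test (4.15 ± 0.33, SE, limma adjusted p = 0.037), against 0.0403% of all probe sets. The Atf3 probe set also has the suffix r, which marks relaxed rules as said for Lcn2. Whether it reads the Atf3 transcript is likewise unknown from ratios. Of 9 ER chaperone genes 6 had higher values and 2 an unadjusted p under 0.05, against 45.0% and 6.16% of all probe sets, with a median of 0.39, against -0.04.

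**Figure D4:**
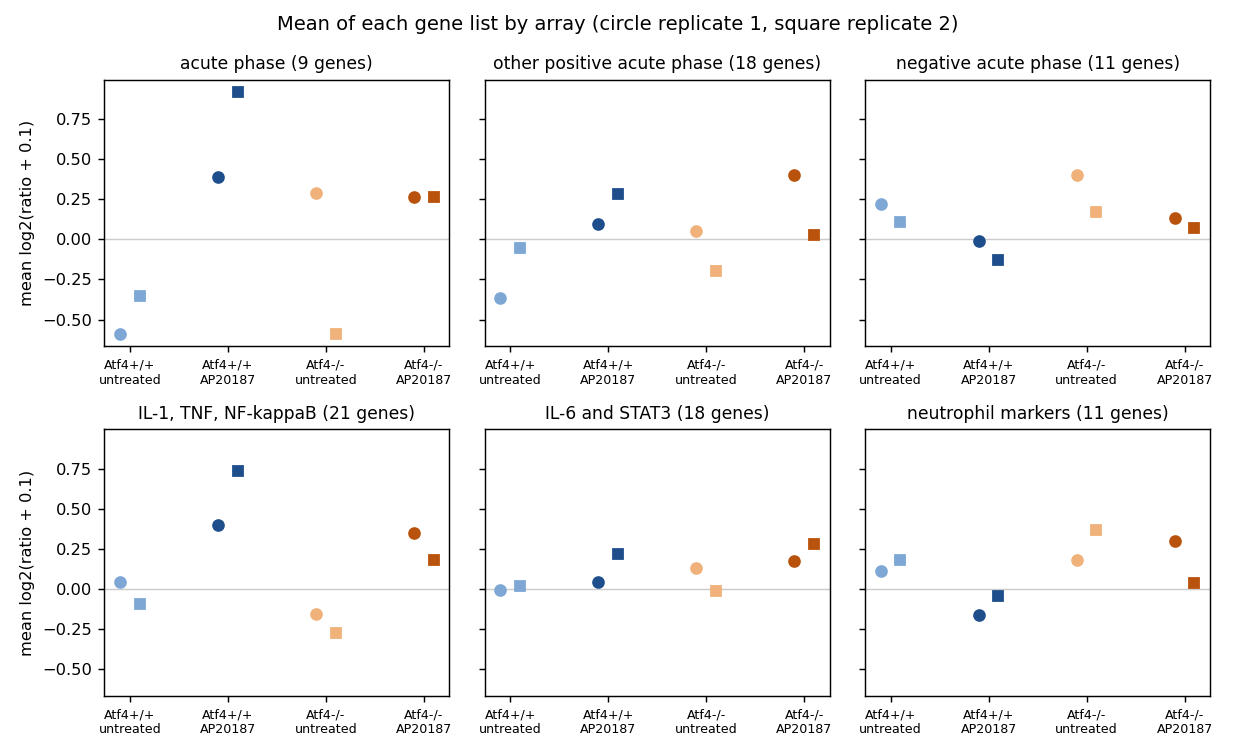
Mean of log2(ratio + 0.1) over the measured genes of 6 lists (y axis) in each array, by group (x axis); circles are replicate 1 and squares replicate 2. The acute phase mean of untreated Atf4-/- replicate 1, 0.29, lies at the level of the treated Atf4-/- arrays, 0.26 in both, while the IL-1, TNF and NF-kappaB mean of that array, -0.16, lies with the untreated ones.

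The mean over the 9 acute phase genes on the log2(ratio + 0.1) scale was -0.59 and -0.35 in untreated and 0.39 and 0.92 in treated Atf4+/+ arrays. In Atf4-/- livers it was 0.29 and -0.59 untreated and 0.26 in both treated arrays. The 2 untreated Atf4-/- arrays therefore lay further apart than any other pair of a group. Of 8242 other genes, those that followed this mean most closely over the 8 arrays were Efna1, Eed, Ccdc186, Icam1 and Eif4g3, with a Pearson correlation of 0.955 to 0.965, and 44 genes exceeded 0.9. These correlations rest on 8 arrays that also differ by treatment. Icam1, already given above, is the 1 of the 5 that a list of inflammatory genes held.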

How the data were processed

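Mouse liver RNA for the 8 arrays was made into biotinylated cRNA with an Affymetrix kit, per the labels' protocols. The values deposited by the authors are linear ratios, and no source used here says how signals were summarised, scaled or divided. Without 66 control probe sets, 12422 remained; 10833 name 1 gene, and 10817 matched the RefSeq gene table (GRCm38.p6) by gene identifier. Ratios give no brightness or detection. The number of arrays limits the precision.

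Values were taken as log2(ratio + 0.1), which understates differences of low ratios. A model with 4 group means over the 8 arrays was fitted with limma 3.58.1 (with statmod 1.5.0, in R 4.3.3), giving 6 contrasts moderated by eBayes with 4 residual and 2.37 prior degrees of freedom. The fit was also run on simulated independent normal noise of the spread that limma estimated, with shifts added to the treated Atf4+/+ arrays. That noise held no doubted labels and no outlying array, so the run cannot show how the fit handles them. One probe set stood for each gene in counts: first any with a median ratio of 0.99 or more, then a plain name, then the smallest SD within groups. The acute phase genes, the other lists and the tests were chosen with earlier results of these data known. Named were all acute phase probe sets, Atf4, up to 3 genes of smallest p from each other list, genes past the test and the 5 most alike genes. Crp lies outside this rule and was chosen after its values were seen. The labels leave unsaid whether the arrays of 1 group are of different mice, so p-values may measure technical spread. The alternatives were other pseudocounts, filters and normalizations, the mean of a gene's probe sets, a fit on the compared groups alone, robust eBayes, other treatment of the doubted labels, and each array left out. Promoters were aligned with Biopython 1.88 under Python 3.11.15, tables used pandas 2.3.3, and figures were drawn with matplotlib 3.10.9.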

Additional observations from a re-analysis of the deposited data

Results flagged for a closer look

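Outlying arrays were looked for among the 4 treated and the 4 untreated arrays of each probe set, 22 groups in all, of which about 1 in 20 is marked by chance. In Hamp untreated Atf4+/+ replicate 2, at 0.40, lay apart from the other 3 untreated arrays at 0.99 to 1.14, with a gap of 0.858 of the range on the log2 scale, more than Dixon's test allows for 4 arrays. In Orm1 treated Atf4+/+ replicate 2, at 0.84, lay below the other 3 treated arrays at 1.17 to 1.23, with a gap of 0.867 of the range.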

How the results depend on the processing

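No acute phase gene passed the adjusted limma test under any of the 19 alternatives, where the lowest adjusted p among 42 results for single probe sets was 0.0755, and 31 of the 42 kept 1 sign throughout. The 42 results covered the AP20187 effects of every gene, but the genotype comparisons only of Apcs, Lcn2, Saa2, Saa3 and Hamp. Single values between untreated genotypes were not among them, nor was the Lcn2 probe set with the suffix r. Apcs, Lcn2 and Saa2 had higher values with AP20187 over both genotypes and in each genotype under every alternative. With the mean of a gene's probe sets, Lcn2 was 1.60 in Atf4+/+, 0.62 in Atf4-/- and 1.11 over both. Median differences over the 9 genes moved by more than the spread between replicates as follows. With a pseudocount of 0.5 the Atf4+/+ median was 0.64. With untreated Atf4-/- replicate 1 placed by its description, the medians were 0.85 in Atf4-/-, -0.021 for the difference of effects and -0.50 between untreated genotypes, and single values of opposite sign were 0.076 for Saa3 and 0.16 for Hp in Atf4-/- and 0.15 for Apcs in the difference of effects. When the 2 untreated arrays with contrary Atf4 readings were left out, the medians were 0.41 in Atf4+/+ and -0.070 in Atf4-/-, and of opposite sign were Itih3 (0.077 in Atf4+/+, -0.45 in Atf4-/- and -0.19 over both) and Itih4 (-0.070 in Atf4-/-). Under quantile normalization Hp in Atf4-/- was 0.000547. The cause of these shifts was not tested. Without 1 array at a time, medians ranged from 0.41 to 1.26 in Atf4+/+, -0.070 to 0.85 in Atf4-/-, 0.21 to 0.53 over both, -1.05 to -0.20 for the difference of effects and -0.10 to 0.56 between untreated genotypes. Values that changed sign in these fits ranged from -0.044 to 0.45 for Orm1 and -0.22 to 0.077 for Itih3 in Atf4+/+; from -1.33 to 0.076 for Saa3, -0.20 to 0.16 for Hp, -0.45 to 0.89 for Itih3 and -0.070 to 0.71 for Itih4 in Atf4-/-; from -0.13 to 0.93 for Saa3 and -0.26 to 0.41 for Itih3 over both; and for the plain Saa2 probe set from -2.11 to 0.24 in the difference of effects and -1.98 to 0.37 between treated genotypes. A fit with 1 array left in a group assumes that it varies like the others. For the effect over both genotypes and the difference of effects, all 4 groups are in the comparison, so that no fit on fewer groups exists.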

Other observations

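The probe set that names both Orm1 and Orm2 had ratios of 0.74 to 1.08 in Atf4+/+ and 0.76 to 1.30 in Atf4-/- livers. The mouse gene Crp, for the pentraxin related to the product of Apcs, stood at 0.94 and 0.91 untreated and 0.90 and 0.53 treated in Atf4+/+, and at 1.17 and 1.13 untreated and 1.07 and 1.20 treated in Atf4-/- livers, so that it had no higher values with AP20187 in Atf4+/+ livers while Apcs had; it was named after its values were seen.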
